A study of Mus musculus with 12 samples.

Results

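The 7 genes *Sod1*, *Tardbp*, *Smn1*, *Vapb*, *Optn*, *Sqstm1*, and *C9orf72*, whose human counterparts are mutated in familial amyotrophic lateral sclerosis (ALS) or spinal muscular atrophy (SMA), were followed through 12 RNA-seq libraries of the embryonic mouse ventral spinal cord. They were taken by name, through their NCBI Gene identifiers, from the 45777 genes of each library's table, and each of the 7 was found. The libraries came from embryos at E12.5, when the motor columns have become distinct, and 4 groups of 3 libraries combined the brachial or lumbar level with the *Isl2* +/- (heterozygote, Het) or *Isl2* -/- (KO) genotype. Isl2 is a LIM homeodomain transcription factor of postmitotic motor neurons (MNs). The controls were thus heterozygotes and not wild type, the null allele was constitutive and not restricted to MNs, and each cord was trimmed around the MN reporter *Hb9::GFP* without sorting cells. The design text names 3 animals of each genotype, and nothing says that a numbered library at the brachial level and its namesake at the lumbar level came from 1 embryo.

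The products of these genes fall into a few cellular jobs. Sod1 is the copper-zinc superoxide dismutase of the cytosol. TDP-43, the product of *Tardbp*, is a nuclear RNA-binding protein that controls splicing and its own mRNA, and SMN, the product of *Smn1*, assembles the Sm protein ring of spliceosomal snRNPs. Vapb tethers the endoplasmic reticulum to other membranes, while Optn and Sqstm1 (p62) are receptors that bring ubiquitinated cargo to autophagosomes, and C9orf72 works in a complex with Smcr8 and Wdr41 on small GTPases and autophagy. All of these genes are used by many cell types, so that the MNs lost in these diseases are not distinguished by expressing them.

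Levels are given as TPM (a transcript abundance per length), rescaled between libraries by size factors, with means ± SD. The 12 libraries held between 4.49 and 6.64 Gb of aligned bases and between 22983 and 24191 genes above 0. The size factors ranged from 0.896 to 1.25, the highest in brachial KO replicate 2, and brachial KO replicate 3 had the least depth. Among the markers, the 10 MN genes summed to between 269 and 656 TPM per library and the 10 pan-neuronal genes to between 4598 and 6004 TPM, so the labelled tissue was recovered in each library. Hemoglobin and other red blood cell genes summed to between 2491 and 4196 TPM in brachial Het and between 3471 and 7096 TPM in brachial KO libraries. *Xist* and Y-linked genes gave 2 male and 1 female library in brachial Het, brachial KO, and lumbar KO, but 1 male and 2 female in lumbar Het, so the Het libraries of both levels cannot come from the same 3 embryos. *Isl2* itself was 8.89 ± 0.713 TPM in brachial Het and 5.91 ± 1.40 TPM in brachial KO, and 9.36 ± 0.937 TPM in lumbar Het and 7.34 ± 0.850 TPM in lumbar KO. The KO libraries lay below the Het libraries at both levels, with adjusted p = 0.359 and 0.999 (limma). Reads of a null allele that still count toward the gene could not be separated in these tables.

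All 7 disease genes were expressed at both levels and in both genotypes, and they spanned a range of 33.8-fold between the means of *Sod1* and *Optn*. *Sod1* was the highest in each of the 12 libraries at 248 ± 23.1 TPM (n = 12), which placed it between the 97.2 and 98.0 percentiles of the genes above a mean of 0.5 TPM. *Sqstm1* followed in each library at 146 ± 13.6 TPM. *Tardbp* averaged 54.5 ± 5.17 TPM and *C9orf72* 45.3 ± 3.40 TPM, and *Tardbp* was the higher of the pair in 11 of 12 libraries although their ranges overlapped. *Vapb* averaged 27.7 ± 1.55 TPM, below *C9orf72* and above *Smn1* in each library. *Smn1* at 9.73 ± 1.78 TPM and *Optn* at 7.33 ± 1.39 TPM were lowest, with overlapping ranges and *Smn1* higher in 9 of 12 libraries. The spread over the 12 libraries was smallest for *Vapb*, with a coefficient of variation of 5.58%, and largest for the low genes *Smn1* (18.3%) and *Optn* (18.9%). The mean base coverage behind these values ranged from 444 to 873 reads for *Sod1* but from 7.95 to 16.0 reads for *Smn1* and from 10.9 to 22.5 reads for *Optn*, so the low genes were measured less precisely.

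**Figure D1:**
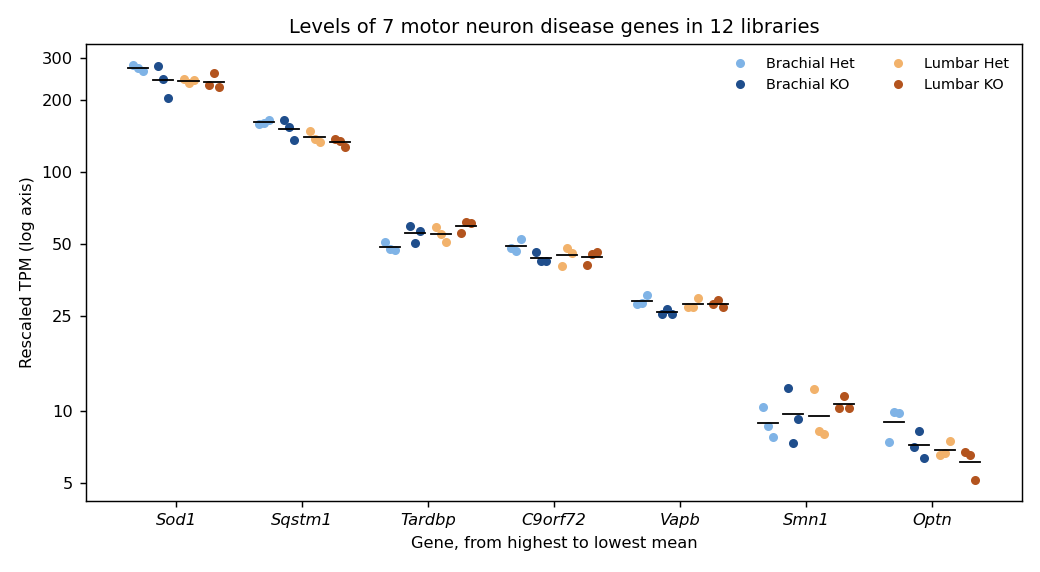
Rescaled TPM on a log axis for each of the 7 genes, ordered by mean; each point is a library, colored by group, and each black bar is the mean of 3 libraries. *Sod1* and *Sqstm1* stand above the rest in every library, *Tardbp* and *C9orf72* overlap, *Smn1* and *Optn* overlap at the bottom, and no group shifts the order of the tiers.

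The genes lie on 5 chromosomes of GRCm38, the build of the mm10 files. *Sod1* (gene 20655) spans chr16:90220762-90226333 on the plus strand, *Sqstm1* (18412) chr11:50200152-50210820 on the minus strand, and *Tardbp* (230908) chr4:148612382-148627084 on the minus strand. *C9orf72* (73205) spans chr4:35191285-35226153 on the minus strand, *Vapb* (56491) chr2:173737571-173784336 on the plus strand, *Smn1* (20595) chr13:100123205-100137699 on the plus strand, and *Optn* (71648) chr2:5020521-5064399 on the minus strand. The 250 bases before a listed transcript start were read from RefSeq (GRCm38.p6) for the highest gene, the lowest gene, and the gene that differed between levels. For *Sod1* and *Sqstm1* that start is the end of the gene span, whereas the listed starts of *Optn*, *Tardbp*, and *C9orf72* lie inside the spans given above, which reach further upstream. The windows of *Optn* and *C9orf72* lie wholly within the spans of these genes, as does that of the downstream listed start of *Smn1*. Written 5′ to 3′ on the gene's own strand, with matches to TATAAA or GGGCGG on either strand in capitals, they are:
Sod1, chr16:90220512-90220761, plus strand: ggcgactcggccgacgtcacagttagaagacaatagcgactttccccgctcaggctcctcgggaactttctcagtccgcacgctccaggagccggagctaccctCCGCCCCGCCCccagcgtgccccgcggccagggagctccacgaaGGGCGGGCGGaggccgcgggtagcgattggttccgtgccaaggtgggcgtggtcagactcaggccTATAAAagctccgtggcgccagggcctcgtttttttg
Sqstm1, chr11:50210821-50211070, minus strand: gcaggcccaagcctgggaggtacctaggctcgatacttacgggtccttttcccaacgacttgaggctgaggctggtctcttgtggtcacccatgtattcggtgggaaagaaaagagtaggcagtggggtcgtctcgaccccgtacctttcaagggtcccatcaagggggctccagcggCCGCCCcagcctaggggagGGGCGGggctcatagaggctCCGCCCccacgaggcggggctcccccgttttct
Optn, chr2:5064118-5064367, minus strand: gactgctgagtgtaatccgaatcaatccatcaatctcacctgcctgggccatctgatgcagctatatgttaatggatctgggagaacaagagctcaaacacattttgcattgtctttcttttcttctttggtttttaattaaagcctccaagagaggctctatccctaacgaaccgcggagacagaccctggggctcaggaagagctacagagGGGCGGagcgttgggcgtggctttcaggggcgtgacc

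The *Sod1* window held a TATAAA whose first base lies 37 bases before the start, and 12.4% of the 32851 such windows in the reference held one on either strand. The windows of the other members held no match within these 250 bases. The GC box GGGCGG, counting overlapping matches, occurred 4 times before *Sod1*, 5 times before *C9orf72*, 3 times each before *Sqstm1*, *Tardbp*, and *Vapb*, and 1 time before *Optn*, and 32.7% of all windows held it. Neither of the 2 listed starts of *Smn1* held a GC box. The number of CpG pairs ran from 26 before *Sod1* and 24 before *Tardbp* and *Vapb* to 17 before *C9orf72*, 14 before *Sqstm1*, 8 before *Optn*, and 2 and 6 before the starts of *Smn1*, beside a median of 6 over all windows.

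The question of the genotype comparison was which genes depend on Isl2 at each level. At the brachial level, none of the 7 genes passed an unadjusted p under 0.05 or an adjusted p under 0.05 between *Isl2* KO and Het (limma), where 13.8% of the 16935 genes tested passed the first (7.13% lower and 6.67% higher in KO) and 0.0059% (1 gene, *Uts2b*, which is not a disease gene of this set) the second. The share of genes at an unadjusted p under 0.05 rested on single libraries, since 790 genes passed without Het replicate 3 and 4366 without KO replicate 1, instead of 2336. In bulk tissue, fewer cells of a type and less RNA per cell cannot be told apart. The 10 pan-neuronal markers summed to between 5395 and 6004 TPM in the brachial Het and between 5106 and 5248 TPM in the brachial KO libraries. The 10 MN markers summed to between 638 and 656 TPM in Het and between 577 and 606 TPM in KO, without overlap, but without *Prph* they overlapped at 338 to 343 and 314 to 368 TPM. The red blood cell markers reached higher in KO, as given above, and the part of these lists in the brachial estimates was not tested. The estimates were lower in KO for 5 genes and higher for 2, with a median log2 difference of −0.16 over the members and −0.01 over all genes tested. The median size, regardless of sign, was 0.16 for the members and 0.17 for all genes.

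The brachial difference of largest size was that of *Optn*. It measured 7.40, 9.87, and 9.79 TPM in the Het libraries and 7.09, 8.28, and 6.37 TPM in the KO libraries. Only Het replicate 1 reached into the KO range, and the log2 difference was −0.31 (SE 0.16, 95% interval −0.67 to 0.05, adjusted p = 0.381). *Sod1* measured 279.8, 272, and 264 TPM in Het and 277, 243, and 203 TPM in KO libraries. KO replicate 3, the library of least depth, was the lowest and KO replicate 1 lay within the Het range, and the log2 difference was −0.19 (SE 0.11, 95% interval −0.45 to 0.08, adjusted p = 0.435). Without KO replicate 1 its log2 difference was −0.29 and passed an unadjusted p under 0.05 (adjusted p = 0.124), and without KO replicate 3 it was −0.068 (adjusted p = 0.804).

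*Vapb* and *C9orf72* were the members whose brachial genotypes did not overlap, 2 of 7 where 20.0% of all genes tested did not overlap. *Vapb* measured 28.1, 28.3, and 30.4 TPM in Het and 25.4, 26.6, and 25.5 TPM in KO libraries. All KO values lay below all Het values, by a log2 difference of −0.16 (SE 0.07, 95% interval −0.33 to 0.01, adjusted p = 0.359). *C9orf72* measured 47.8, 46.6, and 52.2 TPM in Het and 46.2, 42.4, and 42.4 TPM in KO libraries, and KO replicate 1 came closest to the lowest Het library. Its log2 difference was also −0.16 (SE 0.08, 95% interval −0.34 to 0.02, adjusted p = 0.371). An exact two-sided permutation test of 3 libraries against 3 cannot go below p = 0.1, the value that both genes had. With the TPM values as deposited, which moved the median log2 difference of all genes from −0.01 to 0.16, *Vapb* was at 0.013 and *C9orf72* at 0.015, below that median as in the rescaled values.

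*Tardbp* went the other way. It measured 50.7, 47.5, and 46.9 TPM in brachial Het and 59.6, 50.2, and 56.5 TPM in brachial KO libraries. KO replicate 2 lay below the highest Het library and the other two above all of them, with a log2 difference of 0.19 (SE 0.08, 95% interval −0.0018 to 0.39, adjusted p = 0.359). Its unadjusted p was under 0.05 in 7 of 13 alternative settings that kept all libraries, with adjusted p-values between 0.275 and 0.521 in those 7. *Sqstm1* (161 ± 3.51 TPM in Het, 151 ± 14.4 in KO) and *Smn1* (8.95 ± 1.32 and 9.72 ± 2.61 TPM) differed by −0.09 (95% interval −0.29 to 0.10) and 0.09 (−0.37 to 0.56) on the log2 scale. The KO libraries of *Smn1* ran from 7.37 to 12.52 TPM, and the 3 Het values lay inside that range. Its estimate was −0.10 without KO replicate 1 and near 0 without Het replicate 3, so its brachial direction rested on single libraries.

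**Figure D2:**
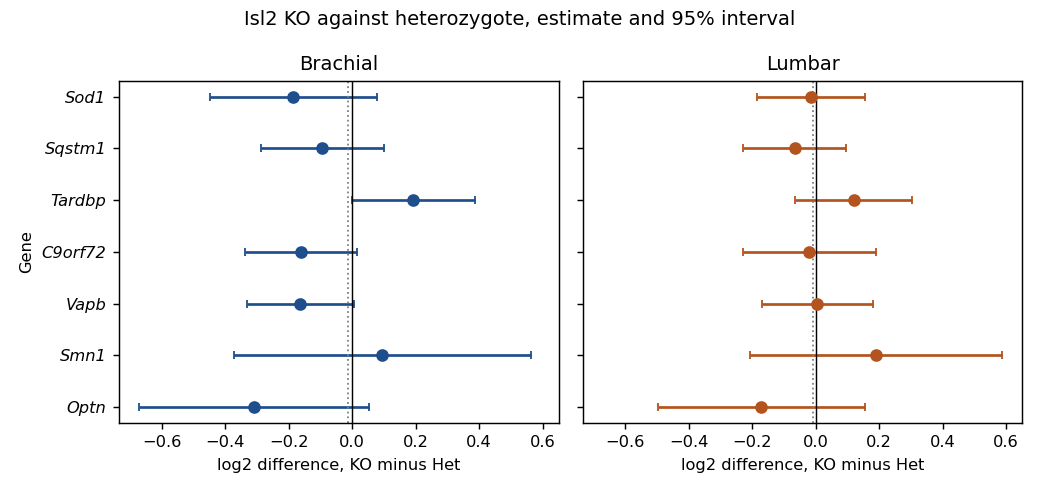
Log2 difference of *Isl2* KO minus Het (x axis) for each of the 7 genes (y axis) at the brachial (left) and lumbar (right) level, as estimate and 95% interval from limma; the dotted line is the median of all genes tested. Each interval includes 0, the brachial estimates of *Sod1*, *Sqstm1*, *C9orf72*, *Vapb*, and *Optn* are below 0, and the lumbar estimates are closer to 0 than the brachial ones except that of *Smn1* (0.09 brachial, 0.19 lumbar).

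At the lumbar level, none of the 7 genes passed an unadjusted p under 0.05 or an adjusted p under 0.05 (limma), where 4.88% of the 16511 genes tested passed the first (2.25% lower and 2.62% higher in KO) and 0.0% the second. None of the members had genotypes that did not overlap, where 9.93% of all genes did. The median log2 difference was −0.01 over the members and −0.01 over all genes. *Sod1* measured 244, 234, and 242 TPM in Het and 230.3, 258, and 225 TPM in KO libraries, a log2 difference of −0.01 with a 95% interval from −0.18 to 0.15. *Vapb* was at 28.04 ± 1.43 and 28.1 ± 1.005 TPM, with a log2 difference of 0.01 (−0.17 to 0.18), and *C9orf72* at 44.7 ± 3.89 and 44.1 ± 3.04 TPM, with −0.02 (−0.23 to 0.19). *Sqstm1* differed by −0.07 (−0.23 to 0.10), *Optn* by −0.17 (−0.50 to 0.16), *Tardbp* by 0.12 (−0.07 to 0.30), and *Smn1* by 0.19 (−0.21 to 0.59), with an adjusted p of 0.999 for each of the 7. Single libraries moved these values, *Sqstm1* to −0.021 without Het replicate 1, *Optn* to −0.050 without KO replicate 3, and *Tardbp* to 0.067 without Het replicate 3. The estimates near 0 changed sign when single libraries were left out, in 2 of 6 cases for *Sod1* (−0.074 to 0.023), 3 of 6 for *Vapb* (−0.021 to 0.047), and 2 of 6 for *C9orf72* (−0.091 to 0.038).

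Lumbar *Smn1* was uneven among Het libraries, at 12.4, 8.28, and 7.99 TPM, against 10.3, 11.6, and 10.3 TPM in KO. Het replicate 1 was the highest of the 6, and without it the log2 difference was 0.39 and passed an unadjusted p under 0.05 (adjusted p = 0.999). *Tardbp* was above 0 in the estimates of both levels, also without any one library (0.14 to 0.26 brachial, 0.067 to 0.17 lumbar), and *Smn1* was above 0 at the lumbar level without any one library (0.079 to 0.39) but not at the brachial level. Over both levels, the intervals of the 7 genes reached from −0.67 for brachial *Optn* to 0.59 for lumbar *Smn1*, so a log2 difference of 1 in either direction lay outside each of them.

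Whether the KO effect differed between levels was tested with the interaction of level and genotype over the 12 libraries. None of the 7 genes passed an adjusted p under 0.05 or an unadjusted p under 0.05 (limma), where 0.0% and 4.42% of all 16736 genes did. The smallest unadjusted p was that of *Vapb*, whose KO effect was higher at the lumbar level by 0.17 on the log2 scale (95% interval −0.04 to 0.37, adjusted p = 0.811). *Sod1* differed by 0.17 (−0.13 to 0.47) and *C9orf72* by 0.14 (−0.11 to 0.40), each with an adjusted p of 0.813. The value of *Sod1* was 0.053 without brachial KO replicate 3 and 0.28 without brachial KO replicate 1, where it passed an unadjusted p under 0.05 (adjusted p = 0.378) as did 2104 genes instead of 740, and that of *C9orf72* was 0.070 without lumbar Het replicate 1. The lower brachial estimates of these genes are thus not shown to differ from the lumbar ones.

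Between the levels, *Sqstm1* was the member that differed. It fell from 156 ± 10.8 TPM in the 6 brachial to 136 ± 7.01 TPM in the 6 lumbar libraries, a log2 difference of −0.20 (SE 0.05, 95% interval −0.31 to −0.09) with an adjusted p of 0.0186 (limma, genotype as a covariate). Across all genes tested, 18.5% passed an adjusted p under 0.05 in either direction, 9.65% lower and 8.88% higher at the lumbar level, and 1 of 7 members is near that background. The Het libraries measured 158, 160.4, and 165 TPM at the brachial and 148, 136, and 133 TPM at the lumbar level, without overlap. The KO libraries measured 164, 154, and 136 TPM at the brachial and 137, 135, and 127 TPM at the lumbar level, where brachial replicate 3 overlapped the lumbar values. The exact permutation test of 6 libraries against 6, without genotype, gave a two-sided p = 0.0087. Of 24 alternative settings 23 kept the call, with adjusted p-values between 0.0047 and 0.0506, and the call was lost without lumbar Het replicate 3. The MN list moved in the same direction, its sum in the lumbar libraries being 0.587 times that in the brachial ones, but 0.938 times without the intermediate filament gene *Prph*. The 6 endothelial markers were at 0.73 and the 8 microglial ones at 0.634 of their brachial sum, the pan-neuronal ones at 0.951, the progenitor ones at 0.956, and the red blood cell ones at 0.928. None of these lists held a marker listed at 0 in every library, and their part in the result was not tested.

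*Optn* and *Tardbp* passed an unadjusted p under 0.05 between levels but not the adjusted test, which made 3 of 7 members with *Sqstm1* at the unadjusted threshold, where 32.2% of all genes passed it. *Optn* measured between 6.37 and 9.87 TPM (mean 8.13 ± 1.45) in the 6 brachial and between 5.15 and 7.49 TPM (mean 6.53 ± 0.762) in the 6 lumbar libraries, a log2 difference of −0.30 (95% interval −0.53 to −0.08, adjusted p = 0.0614). *Tardbp* measured between 46.9 and 59.6 TPM (51.9 ± 5.06) at the brachial and between 50.9 and 61.4 TPM (57.1 ± 4.099) at the lumbar level, a log2 difference of 0.14 (0.02 to 0.26, adjusted p = 0.0996). The other four had intervals that included 0, with log2 differences of −0.10 for *Sod1* (−0.25 to 0.06), −0.06 for *C9orf72* (−0.19 to 0.07), 0.04 for *Vapb* (−0.07 to 0.15), and 0.12 for *Smn1* (−0.18 to 0.42). No member had levels that did not overlap over the 12 libraries, where 8.32% of all genes did. Sqstm1 and Optn, the autophagy receptors among the members, were thus lower in the lumbar estimates, the second without passing the adjusted test. Over a list of 20 other autophagy receptors and adaptors, the median log2 difference was 0.004, beside 0.01 over all genes. Of these 20, 0 passed an adjusted p under 0.05 (limma).

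**Figure D3:**
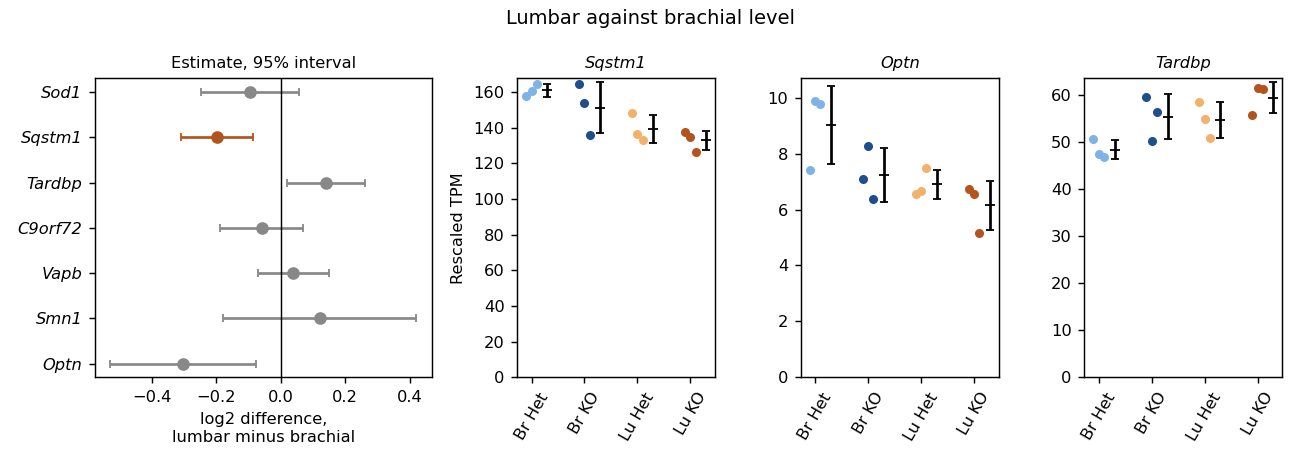
Left, log2 difference of lumbar minus brachial for the 7 genes with 95% intervals from limma, in orange where the adjusted p is under 0.05; right, rescaled TPM of *Sqstm1*, *Optn*, and *Tardbp* per library (points) with mean and SD (bars) in brachial (Br) and lumbar (Lu) groups. *Sqstm1* is the colored gene, and in its panel the lumbar libraries sit between 127 and 148 TPM and the brachial ones between 136 and 165 TPM.

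Other genes of each pathway were read from lists given by name. The SMN complex and Sm core list holds the Gemins with which SMN works, the Sm proteins that it loads onto snRNAs, and the Prmt5 methylosome that prepares them. *Smn1* itself measured 9.34 ± 1.90 TPM at the brachial and 10.1 ± 1.74 TPM at the lumbar level (n = 6 each). Of its 18 partners, 7 were higher and 0 lower at the lumbar level at an adjusted p under 0.05, where 8.88% of all genes were higher, with a median log2 difference of 0.18 against 0.01 over all genes. They were the Sm genes *Snrpe* (320 ± 45.9 to 420.4 ± 46.7 TPM, log2 0.40), *Snrpb* (0.33), *Snrpg* (0.30), and *Snrpd1* (0.26), and the complex members *Gemin6* (10.9 ± 1.16 to 14.1 ± 2.23 TPM, 0.36), *Ddx20* (0.19), and *Strap* (0.17). The count was 2 with values as deposited. It was also 2 without brachial Het replicate 2, brachial KO replicate 2, or lumbar Het replicate 3, it was 3 without lumbar Het replicate 2, lumbar KO replicate 2, or lumbar KO replicate 3, and it was 4 without brachial KO replicate 3, with 0 lower in each. *Gemin2*, the closest partner of SMN, differed by 0.12 (SE 0.11, adjusted p = 0.472), *Gemin4* by 0.15, *Gemin5* by 0.08, *Gemin7* by 0.07, and *Gemin8* by 0.30 (adjusted p = 0.166). In brachial KO, 3 of the 18 were lower at an unadjusted p under 0.05, *Snrpd2* (log2 −0.34), *Snrpe* (−0.30), and *Snrpg* (−0.28), where 7.13% of all genes were lower. In lumbar KO 0 of 18 were, where 2.25% of all genes were lower (limma).

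**Figure D4:**
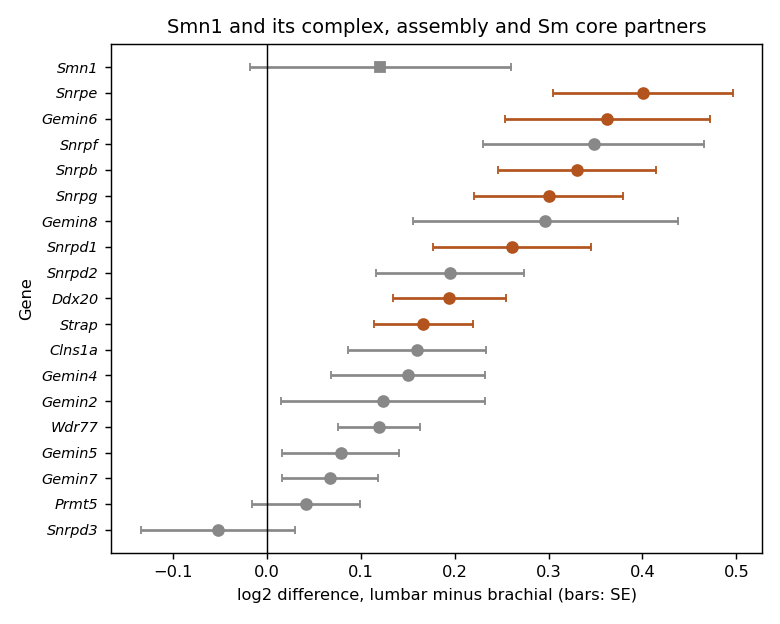
Log2 difference of lumbar minus brachial (x axis) for *Smn1* (square) and 18 partner genes (circles), with bars of 1 SE; orange marks an adjusted p under 0.05. The 7 orange genes lie between 0.17 and 0.40, *Smn1* is at 0.12, and *Snrpd3* is the gene with an estimate below 0.

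Around *Sod1*, the superoxide handling list held the peroxidases and thioredoxins downstream of it and Ccs, the chaperone that loads copper into Sod1. In brachial KO, 5 of 11 tested genes were lower at an unadjusted p under 0.05 and 0 higher, where 7.13% of all genes were lower, with a median log2 difference of −0.21, but under the values as deposited 0 were lower and 2 higher. None passed an adjusted p under 0.05 (limma), and 3 were lower without Het replicate 1 and 2 without Het replicate 3 or KO replicate 2. *Ccs* measured 21.6 ± 1.75 TPM in Het and 17.5 ± 1.58 TPM in KO (log2 −0.30), *Txn1* 153 ± 9.64 and 123 ± 13 TPM (−0.33), and *Prdx5* 105 ± 6.44 and 87.2 ± 8.72 TPM (−0.28). The mitochondrial dismutase *Sod2* differed by −0.12 (SE 0.07, adjusted p = 0.397), close to *Sod1* itself at −0.19. *Sod3*, the secreted dismutase, stayed under the filter with at most 0.19 TPM. At the lumbar level none of the 11 passed an unadjusted p under 0.05, where 4.88% of all genes did, and *Ccs* was at 18.997 ± 1.88 and 19.2 ± 1.18 TPM. Between levels *Prdx1* was higher at the lumbar one by 0.30 (adjusted p = 0.0201, limma), 1 of 11 at an adjusted p under 0.05 where 8.88% of all genes were higher.

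Around *Tardbp*, 4 of 10 related RNA-binding and target genes were higher in brachial KO at an unadjusted p under 0.05, where 6.67% of all genes were higher, 0 were lower, and 0 passed the adjusted test (limma). They were *Celf2* (13.4 to 19.5 TPM, log2 0.52), *Elavl1* (33.3 to 45.8 TPM, 0.44), *Elavl3* (76.1 to 94.0 TPM, 0.30), and *Sort1* (42.8 to 51.4 TPM, 0.26), beside 0.19 for *Tardbp*. Without brachial Het replicate 3 only 1 was higher, and 6 were higher with values as deposited. *Stmn2*, a gene of growing axons, differed by 0.10 (SE 0.07). In lumbar KO 0 of 10 passed an unadjusted p under 0.05, where 4.88% of all genes did. Between levels *Ptbp1* (0.37), *Hnrnpk* (0.23), and *Hnrnpc* (0.19) were higher at the lumbar level at an adjusted p under 0.05. These are 3 of 10, where 8.88% of all genes were higher.

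**Figure D5:**
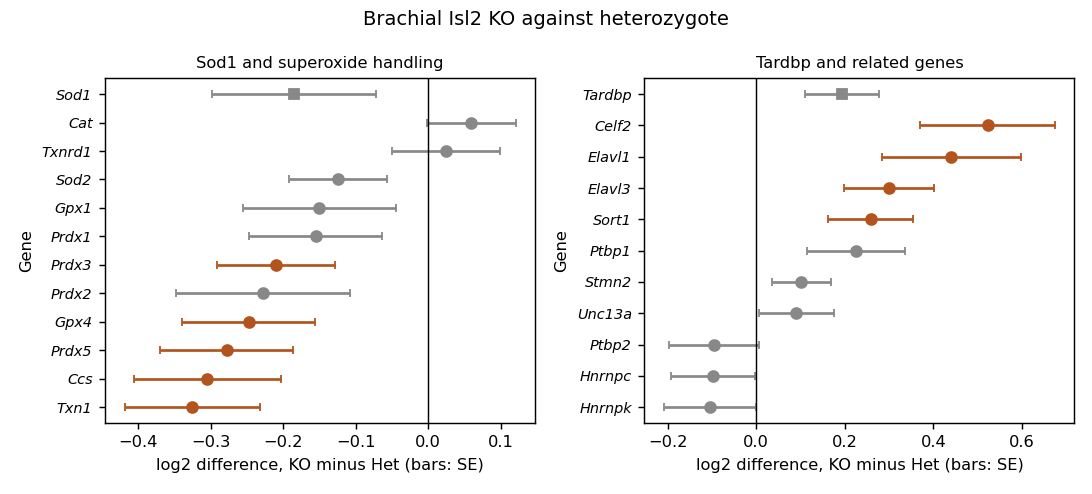
Log2 difference of *Isl2* KO minus Het at the brachial level (x axis) for *Sod1* and 11 superoxide handling genes (left) and for *Tardbp* and 10 related genes (right); squares are the disease genes, bars are 1 SE, and orange marks an unadjusted p under 0.05. The 5 orange genes on the left lie below 0 and the 4 on the right above 0, while neither square is colored.

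*Vapa*, the paralog of *Vapb*, was expressed at 261 TPM on average, differed by −0.19 in brachial KO (274 ± 19.4 to 241 ± 19.1 TPM, no overlap, adjusted p = 0.371), and by −0.05 in lumbar KO. Among all genes tested at the brachial level, 20.0% did not overlap between genotypes. Of 15 genes of the VAP family and its contact sites, only *Cert1*, a ceramide carrier, was higher in brachial KO at an unadjusted p under 0.05 (log2 0.23, adjusted p = 0.359), where 6.67% of all genes were higher. Between levels 0 of 15 passed an adjusted p under 0.05 (limma), where 18.5% of all genes did. For the C9orf72 complex, *Smcr8* rose at an unadjusted p under 0.05 in brachial KO, from 9.49 ± 0.809 to 12.4 ± 1.82 TPM (log2 0.37, SE 0.13, adjusted p = 0.359), opposite to the estimate of *C9orf72*, and *Wdr41* differed by 0.11 (SE 0.11). Neither passed an adjusted p under 0.05 between levels, where 18.5% of all genes did. Of 20 autophagy receptors and adaptors, 0 passed an adjusted p under 0.05 between levels (limma), where 18.5% of all genes did. The kinase *Tbk1*, which phosphorylates Optn and Sqstm1, was at 23.8 ± 1.20 TPM at the brachial and 25.6 ± 1.27 TPM at the lumbar level (log2 0.11, SE 0.05, adjusted p = 0.162). In brachial KO *Map1lc3a* (−0.26) and *Gabarapl2* (−0.19), the ubiquitin-like proteins that such receptors bind, were lower and the autophagy kinase *Ulk1* (0.54) higher at an unadjusted p under 0.05. These 3 of 20 are near the 13.8% of all genes that passed it, and none passed the adjusted test (adjusted p = 0.359 for each, limma).

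Among 33 tested genes of other forms of ALS, 3 were lower and 1 was higher in lumbar than in brachial libraries at an adjusted p under 0.05, where 9.65% and 8.88% of all genes were, so that the total of 4 is below the 18.5% of all genes. The lower ones were the neurofilament gene *Nefh* (11.4 to 5.24 TPM, log2 −1.11), *Prph* (284 to 48.4 TPM, −2.62), and the mitochondrial *Chchd10* (15.4 to 8.76 TPM, −0.81), and *Ccnf* was the higher one (7.99 to 12.54 TPM, 0.64). In brachial KO, 3 of the 33 were higher at an unadjusted p under 0.05, *Hnrnpa2b1* (0.42) and *Erbb4* (0.45) among them, and 1 was lower, *Prph* (−0.26). Of all genes, 6.67% were higher and 7.13% lower. In lumbar KO *Prph* alone was called at that threshold and was lower (61.7 to 35.2 TPM, −0.78, adjusted p = 0.986, limma), 1 of 33 where 4.88% of all genes passed. Among 17 genes of other SMA forms and motor neuropathies, the choline transporter *Slc5a7* (28.7 to 13.5 TPM, −1.10) and the small heat shock protein *Hspb1* (−1.51) were lower at the lumbar level, and *Exosc3* (0.42) and *Fbxo38* (0.20) higher, at an adjusted p under 0.05, so that 4 of 17 were called where 18.5% of all genes were. In brachial KO *Dync1h1* (0.38) and *Bicd2* (0.19), of the dynein motor, were higher and *Asah1* (−0.23) lower at an unadjusted p under 0.05, 3 of 17 where 13.8% of all genes passed. In lumbar KO *Slc5a7* was lower (−0.35) at that threshold, 1 of 16 tested where 4.88% of all genes passed, and 0 passed the adjusted test. Of 3 SMA modifiers, 1 was lower at the lumbar level at an adjusted p under 0.05, *Ncald* (34.6 to 25.8 TPM, −0.43), where 9.65% of all genes were. *Prph* and *Slc5a7* also belong to the MN marker list.

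A further 14 disease-related genes had been drawn by the study from its own changed genes in these libraries, so their direction is not independent evidence. Of the 13 tested, 10 were lower in lumbar KO and 5 in brachial KO at an unadjusted p under 0.05, where 2.25% and 7.13% of all genes were lower, 0 passed the adjusted test (limma), and 7 were lower at the lumbar level at an adjusted p under 0.05, where 9.65% of all genes were. The MN markers summed to between 351 and 464 TPM in the lumbar Het and between 269 and 386 TPM in the lumbar KO libraries (287 to 387 and 235 to 355 TPM without *Prph*), and the pan-neuronal markers to between 5149.8 and 5869 TPM and between 4598 and 5151.7 TPM. Both lists overlapped between genotypes, and their part in the lumbar KO results was not tested. In lumbar KO *Anxa2* fell from 84.1 to 58.5 TPM (log2 −0.52), *Chodl* from 21.7 to 13.5 TPM (−0.67), and *Fam135b* from 7.57 to 4.88 TPM (−0.62), while the log2 differences of the 7 disease genes lay between −0.17 and 0.19. None of the 7 is in that list.

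For each of the 7 genes, protein-coding genes with a mean of at least 5 TPM and the most similar profiles, up to 3 a member, were read from Pearson's r of log2 values over the same 12 libraries, which share size factors and group differences. *Sqstm1* was most like *Chgb* (0.97), *Nnat* (0.97), and *Chchd6* (0.96), and *Vapb* was most like *Tarbp2* (0.95) and *Nans* (0.92). *Sod1* was closest to *Fam216a* (0.94), *Trappc6b* (0.91), and *Pex14* (0.91), and *C9orf72* to *Ypel5* (0.93), *Tmf1* (0.93), and *Zfp617* (0.90). The profile of *Optn* was nearest to *Inpp5f* (0.93), *Hexdc* (0.92), and *Ehd3* (0.92), that of *Smn1* to *Hdgf* (0.91), *Shmt2* (0.85), and *Ubtf* (0.83), and that of *Tardbp* to *Phf21b* (0.89), *Anp32e* (0.89), and *Fam53b* (0.88). These are the highest of many values and carry no test.

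Some reads of the 7 genes could have been shared with neighbors or copies. The kit marks strand, but the strand setting of the abundance estimates is not given in the sources used here. Transcripts of *Mrnip* share 583 identical bases with *Sqstm1* on the opposite strand. *Mrnip* averaged 18.7 TPM and differed between levels by −0.02 (adjusted p = 0.893), where *Sqstm1* differed by −0.20. *Tardbp* shares 1743 bases with *Masp2* on the opposite strand (0.229 TPM), *C9orf72* encloses the pseudogene *Gm12366* on its own strand (5.42 TPM), and *Sod1* has a processed pseudogene, *Gm8566*, with 97.8% identity over 465 bases (0.192 TPM). How many reads were shared was not estimated.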

How the data were processed

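RNA was total RNA from E12.5 ventral spinal cords, and per the labels the libraries were made with the TruSeq Stranded Total RNA kit with Ribo-Zero. Per the labels and the methods, the authors ran FastQC 0.11.7 and Trimmomatic 0.38 on the reads, aligned these to mm10 by means of HISAT2 2.1.0 and Bowtie2 2.3.4.1, and obtained gene abundances per library from StringTie 2.1.3b. The deposited TPM values were scaled by the authors to a fixed total per library, the deposited FPKM values to gene length and mapped fragments, and the deposited coverage values are the mean read coverage of a gene per base. The tables hold no read counts, so no count test was run, and a gene's counting error is unknown. Dividing coverage by FPKM gave the aligned bases of a library. Symbols came from RefSeq (GRCm38.p6) for 45679 of 45777 identifiers, and 96.2% had the same coordinates. Values of 6 identifiers on several lines were summed.

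TPM was divided by median-of-ratios size factors over the 12 libraries, log2 was taken after a pseudocount of 0.1, and limma 3.58.1 (R 4.3.3, lmFit and trended eBayes) was run on genes whose deposited TPM averaged at least 0.5. Fold changes are on the log2(TPM + 0.1) scale, which understates changes of low genes. KO was compared with Het at each level in 6 libraries, and lumbar with brachial (genotype as a covariate) and the interaction in 12. Adjusted p-values are Benjamini-Hochberg over all genes tested, and 95% intervals come from the same fits. The study counts 3 animals in each group, so p-values of KO against Het within a level measure the spread between animals. The fits between levels and of the interaction, and the permutation test of 6 libraries against 6, took libraries as independent. Whether an embryo gave libraries at both levels is not stated, so those p-values cannot be said to measure that spread. Single values were also compared with exact permutation tests. The fit was tested on simulated data. Near-identical transcripts (at least 95% over 150 bases) were found with BLAST 2.17.0+ in GENCODE M21. Tables and plots used Python 3.11.15, pandas 2.3.3, and matplotlib 3.10.9.

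The members and the gene lists were chosen with earlier results of these data known. Named were the 7 members, *Isl2*, close partners of a member whatever their values, per list up to 5 genes a direction of smallest p past an adjusted p of 0.05 between levels and up to 3 past an unadjusted p of 0.05 in each KO comparison, and the 3 most similar genes of each member, of which a few are not reported here. Genes read as overlapping or near-identical were named in addition, after their values were seen. Alternatives were other pseudocounts, filters, scalings, and units, eBayes without a trend, a replicate block, a joint fit, embryo sex as a term, and leaving out each library. Those for gene lists, for overlap, and for spread were chosen after seeing the data.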

Additional observations from a re-analysis of the deposited data

How the results depend on the processing

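Of 350 log2 differences of the 7 genes under alternatives that kept all libraries, 324 kept their direction and their side of the threshold, 14 newly passed it, and 12 changed sign. With TPM as deposited, the median of all genes moved to 0.16 (brachial KO), −0.13 (lumbar versus brachial), and −0.17 (interaction), and all values of that setting are to be read against it. There brachial *Vapb* (0.013), *Sqstm1* (0.083), and *C9orf72* (0.015), the level differences of *Smn1* (−0.018) and *Vapb* (−0.10), and the interactions of *Smn1* (−0.067), *Optn* (−0.026), *Sqstm1* (−0.14), and *C9orf72* (−0.025) changed sign. Quantile normalization did so for *Sqstm1* in brachial KO (0.010) and in the interaction (−0.058), and embryo sex as a term for *Sod1* in lumbar KO (0.024). None of the values that changed sign had passed a test. Leaving out single libraries changed the sign of the brachial KO effect of *Smn1* (−0.10 to 0.28), the lumbar KO effects of *Sod1* (−0.074 to 0.023), *Vapb* (−0.021 to 0.047), and *C9orf72* (−0.091 to 0.038), and the interactions of *Smn1* (−0.085 to 0.30) and *Sqstm1* (−0.048 to 0.090). With no change of sign it moved others by over 1.5 times, among them *Sqstm1* in brachial KO (−0.16 to −0.018), *Sod1* between levels (−0.16 to −0.058), and the interactions of *Optn* (0.050 to 0.27) and *Tardbp* (−0.14 to −0.019).

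The count of members at an unadjusted p under 0.05 in brachial KO, 0 as reported, was 2 with no filter, with coverage, or in a joint fit of 12 libraries (*Tardbp* and *Vapb* each time), 1 (*Tardbp*) with values as deposited, quantile normalization, or size factors of protein-coding genes, and 0 to 2 with a library left out. It was 0 or 1 in lumbar KO with a library left out (1 without Het replicate 1). Between levels, 1 member as reported became 3 with values as deposited (*Optn*, *Sqstm1*, *C9orf72*) and 2 with quantile normalization (*Sod1*, *Sqstm1*), and 0 to 2 with a library left out (0 without lumbar Het replicate 3, 2 with *Optn* without brachial Het replicate 1 or brachial KO replicate 3). The interaction gave 0 throughout at the adjusted threshold, and 1 (*Sod1*) at the unadjusted one without brachial KO replicate 1. Of the members, 1 had brachial genotypes that did not overlap with values as deposited and 3 had with quantile normalization or coverage, against 2 as reported. The 7 higher SMN complex and Sm core genes became 3 with no filter, 2 with values as deposited, 4 without a trend, and 3 with embryo sex as a term, and 2 to 9 with a library left out. The 5 lower superoxide genes became 0 with values as deposited and 3 without a trend, and 2 to 7 with a library left out, and the 4 higher TDP-43 related genes became 1 to 4. For these changes in counts the cause was not tested.

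Deviations of same-numbered Het and KO libraries from their group means correlated at 0.0808, 0.23, and 0.0119 in brachial and 0.144, −0.209, and −0.0877 in lumbar libraries. Those of same-numbered brachial and lumbar libraries correlated at −0.0237, 0.2, and 0.34 in Het and 0.0289, −0.216, and 0.0689 in KO. Same-numbered libraries differed in sex in the lumbar Het and KO pairs. Between levels they did so for number 1 in Het and for numbers 2 and 3 in KO. The correlations cannot show embryos shared under other numbers. Libraries were not treated as pairs, because nothing says that equal numbers mark 1 embryo. With the number as a replicate block, 1 member (*Tardbp*) had an unadjusted p under 0.05 in brachial KO, 2 (*Sqstm1* and *Optn*) passed the adjusted test between levels, and 2 SMN complex and Sm core genes were higher at the lumbar level. Depth limits *Smn1* and *Optn* most, at a coverage of at most 22.5 reads per base, and no counting interval can be given without counts.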
